A study of Homo sapiens with 4 samples.

Results

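The genes examined were the TEAD1, TEAD2, TEAD3 and TEAD4 transcription factors, their coactivators YAP1 and WWTR1 (also called TAZ), and CCN1, CCN2, AMOTL2 and ANKRD1, which are widely used target genes of these factors. Every called accessible summit within the RefSeq span of each of these 10 genes, extended by 50 kb on each side, was taken, which gave 353 of the 166326 summits of the series. The selection rule uses gene names and positions alone, and the genes were picked with earlier results of these data known. Open chromatin was assayed by ATAC-seq (the transposase Tn5 cuts and tags accessible DNA) in 786-O cells, a human clear cell renal cell carcinoma line. One group received 5 µM ACSS2i for 24 h and the other the same volume of DMSO, the vehicle, with 2 libraries in each group. The series concerns ACSS2, an enzyme that makes acetyl-CoA from acetate, and ACSS2i is known here only by that name.

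The Hippo pathway controls YAP1 and WWTR1: its LATS kinases phosphorylate both proteins, which are then held in the cytoplasm or degraded. When this brake is off they enter the nucleus, where they cannot bind DNA by themselves and are brought to it by TEAD factors, often beside AP-1. CCN1 and CCN2 encode secreted matricellular proteins, ANKRD1 encodes an ankyrin repeat protein, and AMOTL2 encodes a junction protein of the angiomotin family that binds and restrains YAP1.

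The 250 bases before an annotated start were read from RefSeq on GRCh38.p14, whose table matched 7 of the 10 genes (TEAD1, TEAD4 and CCN1 had no entry) with 10 starts. The DNA motif recognised by TEAD factors, GGAATG, was searched on both strands. The pattern TGANTCA, where N is any base, was searched in the same way. It is called the AP-1 motif here, although leaving N open makes it a loose form of that motif. The 5 windows below are those of the gene starts with a TEAD motif and of the WWTR1 start that was accessible in every library. They are written 5′ to 3′ along the gene, with TEAD and AP-1 motifs in capitals, and CATTCC is GGAATG on the opposite strand.

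CCN2: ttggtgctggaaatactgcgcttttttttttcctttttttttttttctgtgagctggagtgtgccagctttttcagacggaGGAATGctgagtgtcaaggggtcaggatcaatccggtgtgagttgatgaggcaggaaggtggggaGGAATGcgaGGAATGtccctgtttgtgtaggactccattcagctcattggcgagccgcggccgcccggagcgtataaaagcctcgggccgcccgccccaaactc

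ANKRD1: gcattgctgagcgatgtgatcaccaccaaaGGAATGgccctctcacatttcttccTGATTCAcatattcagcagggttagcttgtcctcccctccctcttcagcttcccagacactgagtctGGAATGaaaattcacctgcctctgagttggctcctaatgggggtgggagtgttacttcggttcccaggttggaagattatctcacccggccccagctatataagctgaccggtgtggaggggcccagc

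AMOTL2 (the second annotated start): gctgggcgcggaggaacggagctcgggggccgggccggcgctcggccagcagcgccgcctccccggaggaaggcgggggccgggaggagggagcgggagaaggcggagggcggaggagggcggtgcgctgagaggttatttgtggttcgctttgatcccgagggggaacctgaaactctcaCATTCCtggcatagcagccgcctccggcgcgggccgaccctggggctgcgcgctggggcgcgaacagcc

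YAP1: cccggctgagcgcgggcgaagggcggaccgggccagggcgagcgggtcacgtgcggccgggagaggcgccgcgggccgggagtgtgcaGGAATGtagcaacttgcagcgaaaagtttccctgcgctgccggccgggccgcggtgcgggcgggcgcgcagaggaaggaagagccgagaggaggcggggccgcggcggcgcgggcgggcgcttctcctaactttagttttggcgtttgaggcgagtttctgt

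WWTR1 (the second annotated start): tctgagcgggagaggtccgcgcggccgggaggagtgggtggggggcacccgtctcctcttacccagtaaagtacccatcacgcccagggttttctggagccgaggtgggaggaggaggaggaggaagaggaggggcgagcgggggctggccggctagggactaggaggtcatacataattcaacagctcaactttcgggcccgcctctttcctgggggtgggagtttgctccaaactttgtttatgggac

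The CCN2 window (chr6:131951373-131951622, minus strand) held 3 TEAD motifs, starting at positions -169, -104 and -95 counted back from the start. The ANKRD1 window (chr10:90921088-90921337, minus strand) held 2, at -220 and -128. Between them, at -195, lay 1 match to the loose AP-1 pattern, TGATTCA, with T as its open base. Of the others, AMOTL2 (chr3:134374448-134374697, minus strand) held 1 at -69, YAP1 (chr11:102110197-102110446, plus strand) held 1 at -162, and the WWTR1 window (chr3:149658026-149658275, minus strand) held neither motif. No motifs overlapped. Of all 35116 promoters in the table, 11.9% held the TEAD motif, 0.94% held 2 or more, 0.0826% held 3 or more, and 6.57% held the AP-1 motif. A match describes these letters and is not evidence of a bound site.

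The 4 lists differed in length: 16400 and 22044 peaks in ACSS2i replicates 1 and 2, and 34696 and 50294 in DMSO replicates 1 and 2. Read totals were not used here. The lowest local background, solved from the peak values, was 2.32 and 3.16 fragments in the ACSS2i libraries. It was 2.06 and 1.75 in the DMSO libraries. The median local background of the peaks was 3.35 and 4.70 in the ACSS2i libraries and 3.71 and 3.89 in the DMSO libraries. These medians overlapped between the groups. The median fold of a whole list was 4.65 and 4.30 in the ACSS2i lists and 5.35 and 6.65 in the DMSO lists. Fold here is the authors' enrichment of a summit over its local background within 1 library. Of 8 markers of the line, VIM, KRT8 and KRT18 had a gene-end peak in all 4 libraries, PAX8 and CDH2 in ACSS2i replicate 2 and both DMSO libraries, and CA9, PAX2 and NNMT in none. The spans of KRT8 and KRT18 overlap, and the same peak was counted for both. Of the markers of other cells, the immune genes PTPRC, CD3E and LYZ and the endothelial or stromal genes PECAM1, CDH5, VWF, KDR and DCN had none, while CD68 and COL1A1 had one in every library, PDGFRB in both DMSO libraries alone and CD14 in DMSO replicate 2 alone.

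Fewer peaks were listed at the 10 loci in ACSS2i cells. They held 33 and 48 peaks in ACSS2i replicates 1 and 2, against 67 and 97 in DMSO replicates 1 and 2. The groups did not overlap. The means were 40.5 ± 10.6 in ACSS2i cells and 82 ± 21.2 in DMSO cells (SD, n = 2 each), a ratio of 0.494, and a two-sided exact permutation test gave p = 0.333, the smallest value that 2 against 2 libraries allow. With counts that do not overlap, the test gives this p whatever the spread among samples. The labels do not say that replicates came from separate cultures, so differences between replicates may be only technical. As a share of each list the 10 loci held 0.201% and 0.218% of peaks in the ACSS2i lists and 0.193% and 0.193% in the DMSO lists; the fewer peaks went with the shorter lists. With every list reduced to its 16400 strongest peaks the direction turned round, to a mean of 35 in ACSS2i cells and 26.5 in DMSO cells (exact permutation p = 0.333).

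**Figure D1:**
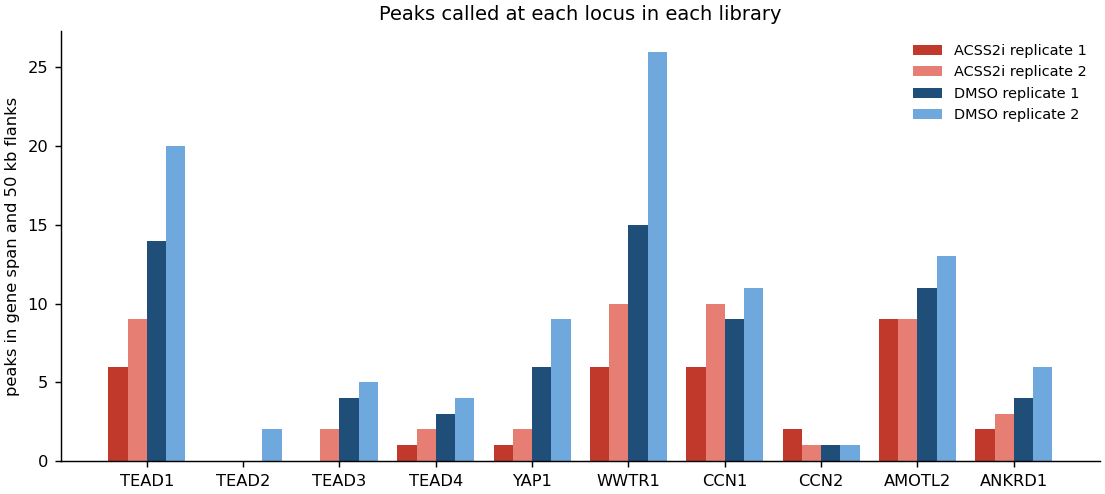
Number of called peaks (vertical axis) in the gene span and 50 kb flanks of each of the 10 genes, 1 bar per library, ACSS2i in red and DMSO in blue. WWTR1 had the most peaks in DMSO replicate 2, 26 against 6 in ACSS2i replicate 1, while AMOTL2 had 9 in each ACSS2i library, against 11 and 13 in the DMSO libraries.

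Overlapping peaks of the 4 libraries were merged into 100 regions at the 10 loci. Of these, 61 were listed in both DMSO libraries, and 29 of the 61 (47.5%) were also in both ACSS2i libraries; over the whole genome the share was 42.2%. A further 16 of the 61 (26.2%) were listed in neither ACSS2i library, against 33.5% over the genome, and 16 were in 1 ACSS2i library. At a −log10 q of at least 5 the share in DMSO lists alone was above that of the genome, with 22 of 50 regions against 40.9%. With lists of equal length it was again below, with 0 of 23 against 6.41%. No region was in both ACSS2i libraries and neither DMSO library, where the genome had 0.0897%; for a total of 29 regions a count of 0 allows a share of up to 10.3%, and such limits cover counting error only. Of all 100 regions, 29 were in all 4 libraries, against 24.8% of all 53572 regions of the series. One region, inside TEAD1 139 kb from its lower end, was listed in ACSS2i replicate 1 alone with a fold of 3.24. Over the genome 250 of 53572 regions were in that list alone. In DMSO replicate 2 alone 33 of the 100 regions were listed, against 17169 of 53572 over the genome. In bulk libraries, fewer cells with an open site and a less open site in each cell cannot be told apart.

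Within the DMSO lists, regions that all 4 lists held had higher ranks than regions missing from ACSS2i lists. Peaks were ranked by their −log10 q, as percentiles of their own list, and since the lists differ in length a percentile gives the place in that list and no change between groups. The lower of the DMSO percentiles had a median of 74.9 for the 29 regions in all 4 lists, 39.3 for the 16 missing from 1 ACSS2i list and 20.2 for the 16 in DMSO lists alone. Over all regions of the series the same medians were 76.5, 45.9 and 25.3. By place, 4 of the 10 gene-end regions in both DMSO libraries were in all 4 lists, as were 12 of 23 regions inside a gene and 13 of 28 in the flanks. Of the 28 in the flanks, 7 lay at an end of another gene, and 1 of those 7 was in all 4 lists. Genome shares by place were not computed, so these counts have no baseline beyond the 42.2% over all regions. A gene-end region lies within 1000 bp of either end of the gene span; exons were not used here, so regions inside a gene are called intragenic.

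**Figure D2:**
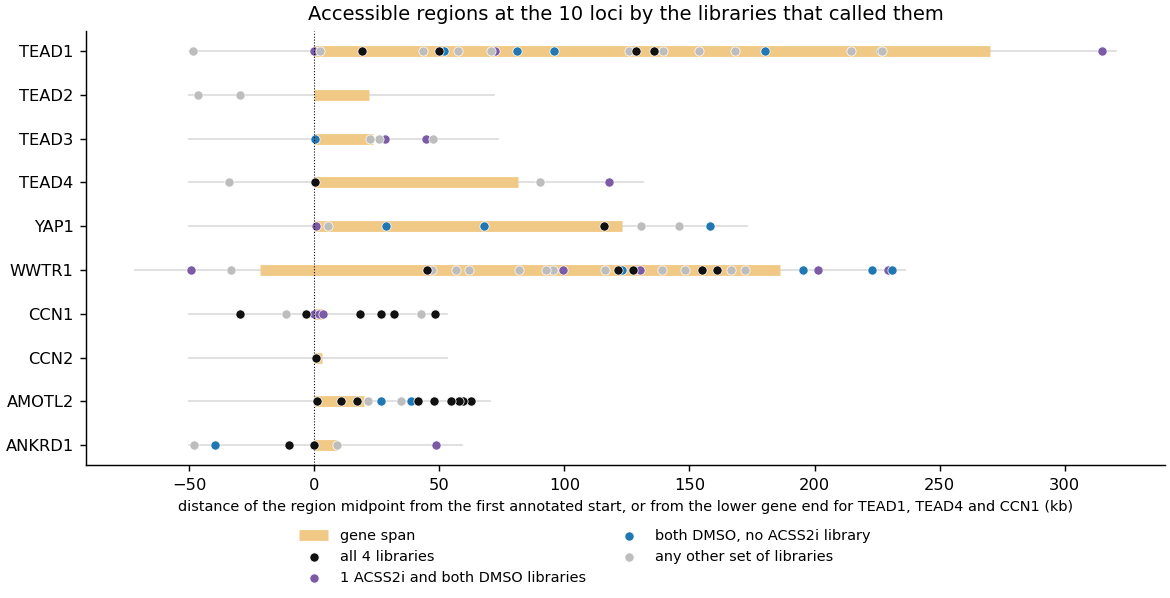
Each point is a merged accessible region, placed by its distance in kb from the first annotated start (or the lower gene end for TEAD1, TEAD4 and CCN1), with the gene span in yellow and the flanks as a thin line. Black points (29) were listed in all 4 libraries and cluster at AMOTL2 and CCN1, purple points (16) in 1 ACSS2i and both DMSO libraries, and blue points (16) in both DMSO libraries alone.

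The density of regions differed between loci. AMOTL2 had 10.8 regions per 100 kb and CCN1 10.7, more than 98.7% and 98.6% of the 20037 protein-coding genes, and WWTR1 had 8.45 (above 94.6%). TEAD1 had 6.21, ANKRD1 5.50, TEAD3 4.86 and YAP1 3.59, all above the median gene at 2.89. TEAD4 had 2.21, TEAD2 1.64 and CCN2 0.969, the last above only 20.1% of genes. Regions at 1 locus share a neighbourhood and are not independent replicates of a condition.

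At the gene ends, both DMSO lists held a peak for 8 of the 10 genes. TEAD4, CCN2, AMOTL2 and ANKRD1 also had it in both ACSS2i libraries, 4 of 8 against 58.0% of the 10471 protein-coding genes that both DMSO lists held. YAP1 and TEAD3 had it in neither ACSS2i library, 2 of 8 against 18.9%, and TEAD1 and CCN1 had it, of the ACSS2i libraries, in replicate 2 alone. YAP1 was no longer missing with a window of 2000 bp (1 of 8 genes missing, against 18.6%). With lists of equal length AMOTL2 and ANKRD1 were the 2 genes in both DMSO lists, and both were in all lists. Without ACSS2i replicate 2, 4 of 8 were missing, against 38.1%. No library listed a gene-end peak for WWTR1 or TEAD2. Counted at annotated starts alone, which TEAD1, TEAD4 and CCN1 lack here, 6 genes were in both DMSO lists. Of these, WWTR1, CCN2, AMOTL2 and ANKRD1 were in all lists, 4 of 6 against 59.0%. TEAD3 and YAP1 were in neither ACSS2i list, 2 of 6 against 17.8%.

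**Figure D3:**
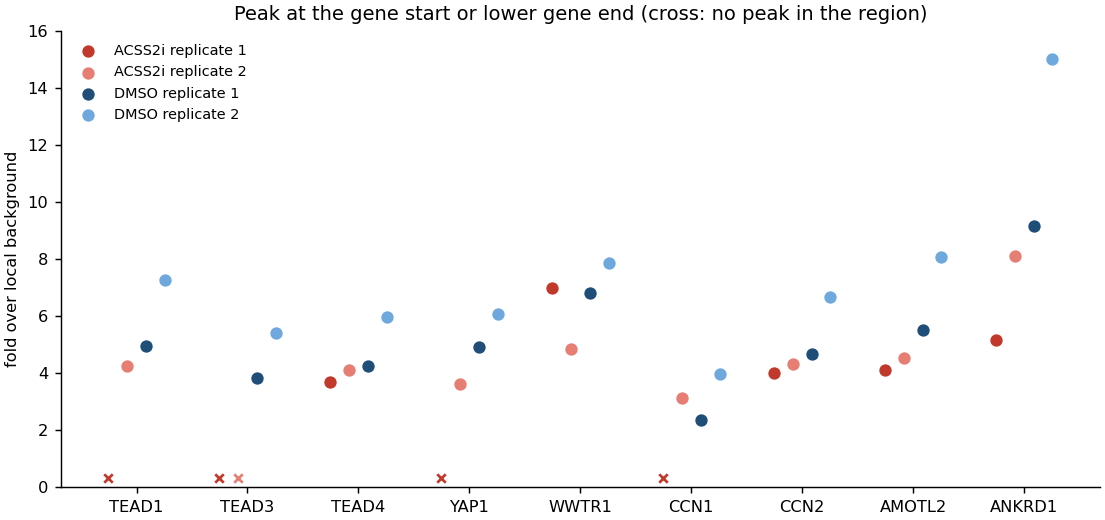
Fold over local background (vertical axis, linear from 0) of the strongest summit in the region at the gene start or lower gene end, 1 point per library, with ACSS2i in red left of DMSO in blue and a cross where no peak was listed; TEAD2 had no such region and is not drawn. ANKRD1 spans the widest range, 5.15 and 8.11 in ACSS2i cells and 9.18 and 15.02 in DMSO cells.

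TEAD1, the family member with the largest locus (chr11:12674421-12944737), had a peak at its lower end (chr11:12673907-12675074) with a fold of 4.23 in ACSS2i replicate 2, against 4.94 and 7.27 in DMSO replicates 1 and 2, and none in ACSS2i replicate 1. Its number of peaks was 6 and 9 in the ACSS2i libraries and 14 and 20 in the DMSO libraries, which did not overlap. The whole lists, of 16400 and 22044 against 34696 and 50294 peaks, did not overlap either. Of 12 TEAD1 regions in both DMSO libraries, 4 were in all 4 lists and 5 in neither ACSS2i list, all 9 of them intragenic. Over the genome these shares were 42.2% and 33.5%. The TEAD1 intragenic region of highest DMSO rank lay 136 kb inside (chr11:12809831-12810868), with folds of 6.01 and 5.71 in ACSS2i cells and 7.0 and 8.01 in DMSO cells. A region 180 kb inside (chr11:12853859-12855180) was the highest ranked of the 5 missing from both ACSS2i lists, with folds of 5.76 and 7.26 in DMSO cells. The flanking TEAD1 region of highest DMSO rank (chr11:12989098-12989818, in LINC00958) had a fold of 3.12 in ACSS2i replicate 2 and none in replicate 1, against 5.19 and 6.26 in DMSO cells.

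The other TEAD genes had few regions. At TEAD4 (chr12:2959397-3040676) the lower gene end (chr12:2958538-2960747) was in every list, with folds of 3.69 and 4.10 in ACSS2i cells and 4.25 and 5.96 in DMSO cells and percentiles of 11.6 and 46.7 against 32.6 and 59.2. A flanking region at the end of the tetraspanin gene TSPAN9 (chr12:3076773-3077952) had a fold of 3.29 in ACSS2i replicate 2 and none in replicate 1, against 5.06 and 10.1 in DMSO cells. At TEAD3 (chr6:35473597-35497079, minus strand) the start region (chr6:35496329-35497551) was in neither ACSS2i list and had folds of 3.82 and 5.41 in DMSO cells, at percentiles of 13.6 and 43.0; it also lies at the end of TULP1. The strongest TEAD3 flank, at the ribosomal protein gene RPL10A (chr6:35468161-35469133), had a fold of 3.59 in ACSS2i replicate 2 and none in replicate 1, against 5.56 and 7.46 in DMSO cells. TEAD2 (chr19:49340595-49362416, minus strand) had no peak in either ACSS2i library or in DMSO replicate 1, and 2 flanking peaks in DMSO replicate 2 with folds of 2.91 and 4.53.

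YAP1 (chr11:102110447-102233424, plus strand) had 1 and 2 peaks in the ACSS2i libraries, against 6 and 9 in the DMSO libraries. The whole ACSS2i lists were also shorter, at 16400 and 22044 peaks against 34696 and 50294. In DMSO replicate 2 a single peak with 5 summits covered the start, from position -465 to 1876 bp counted from the start, with a fold of 6.06 at the strongest summit, at -9 bp. In DMSO replicate 1 this stretch held 2 peaks, 1 before the start with a fold of 3.52 and 1 past it with a fold of 4.93. ACSS2i replicate 2 had a peak only further in, between 1625 and 1815 bp past the start and so outside the gene-end window, with a fold of 3.60, and ACSS2i replicate 1 had none. The YAP1 TEAD motif at -162 lay inside a DMSO peak in both replicates and in no ACSS2i peak. The region overlaps the divergent transcript YAP1-DT.

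Inside YAP1, the only region in all 4 lists lay 116 kb past the start (chr11:102225758-102226929), with folds of 4.63 and 6.57 in ACSS2i cells and 6.47 and 11.1 in DMSO cells. Regions 28.6 kb and 67.9 kb inside were in the DMSO lists alone, with folds of 3.88 and 5.09 at the nearer and 6.21 and 8.79 at the farther. The strongest YAP1 flank, 158 kb from the start (chr11:102268120-102268954), was also in the DMSO lists alone, with folds of 4.09 and 7.13.

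WWTR1 (chr3:149517235-149724788, minus strand) has 2 annotated starts, 45.2 kb apart. The first start had no peak, while the second lay in a region of all 4 lists (chr3:149657268-149658936, overlapping WWTR1-AS1) with folds of 6.97 and 4.86 in ACSS2i cells and 6.79 and 7.86 in DMSO cells. Here the folds of the groups overlapped. The percentiles were 94.5 and 75.5 in ACSS2i cells and 90.2 and 88.4 in DMSO cells. The highest ranked intragenic region, 161 kb from the first start (chr3:149541345-149543077), had folds of 5.81 and 8.45 in ACSS2i cells and 8.03 and 10.5 in DMSO cells, which also overlapped. Close to it, at 155 kb (chr3:149547963-149548681), the folds were 3.79 and 5.04 in ACSS2i cells and 7.16 and 13.4 in DMSO cells. The WWTR1 flank of highest rank, at the end of TM4SF4 (chr3:149473568-149474570), had a fold of 4.48 in ACSS2i replicate 2 and none in replicate 1, against 6.83 and 8.46 in DMSO cells. Of 14 WWTR1 regions in both DMSO libraries, 5 were in all 4 lists and 4 in neither ACSS2i list. Over the genome the shares were 42.2% and 33.5%.

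CCN1 (chr1:85580761-85583950) had its strongest peaks outside the gene. A region 18.4 kb above its lower end (chr1:85598832-85599435) had folds of 8.35 and 6.01 in ACSS2i cells and 12.6 and 16.3 in DMSO cells, with pileups of 44 and 42 fragments against 80 and 158. Its percentiles were 98.0 and 88.8 in ACSS2i cells and 99.7 and 99.7 in DMSO cells. The next region, at 26.5 kb (chr1:85606577-85607988), had folds of 8.02 and 7.05 in ACSS2i cells and 6.86 and 9.88 in DMSO cells, which overlapped. Its percentiles were 99.6 and 99.2 in ACSS2i cells and 98.4 and 99.9 in DMSO cells. In the other direction, a region at -29.6 kb inside DDAH1 (chr1:85550837-85551459) had folds of 3.76 and 3.13 in ACSS2i cells, below the 6.85 and 10.0 of DMSO cells.

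The CCN1 gene itself carried 3 gene-end regions, all missing from ACSS2i replicate 1. At the lower end (chr1:85580126-85581471) the fold was 3.13 in ACSS2i replicate 2, between the 2.36 and 3.95 of DMSO replicates 1 and 2. The local background there was high, at 7.62 fragments in ACSS2i replicate 2 and 13.0 and 20.5 in the DMSO libraries, so that pileups of 26 in ACSS2i replicate 2 and of 32 and 84 in the DMSO libraries gave low folds. The regions centred 1.95 kb and 3.49 kb above the lower end had folds of 3.01 and 3.32 in ACSS2i replicate 2, against 2.89 and 2.47 for the nearer and 3.66 and 2.78 for the farther in the DMSO libraries.

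CCN2 (chr6:131948176-131951372, minus strand) had a single region in its span and flanks, at its start (chr6:131949945-131951567, overlapping CCN2-AS1) and in all 4 lists. The folds were 4.0 and 4.32 in ACSS2i cells and 4.67 and 6.68 in DMSO cells, and the pileups 15 and 19 fragments against 28 and 65. Both ACSS2i values were the lower ones on each measure. The same held for the median fold and pileup of the 29 regions in all 4 lists. Within each list the percentiles were 25.1 and 40.4 in ACSS2i cells and 48.3 and 71.2 in DMSO cells. Ranked only among the regions that all 4 lists held, the CCN2 region had a mean percentile of 19.0 in ACSS2i cells. It was 14.7 in DMSO cells, and the groups overlapped. The TEAD motifs at -104 and -95 lay inside peaks of ACSS2i replicate 2 and both DMSO libraries, with the motif at -95 within 61 bp of a summit in ACSS2i replicate 2, and 4 and 54 bp in DMSO replicates 1 and 2. The motif at -169 lay inside DMSO peaks alone, and in ACSS2i replicate 1 none of the 3 lay inside a peak.

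AMOTL2 (chr3:134355345-134375417, minus strand) kept 9 of its 11 regions of both DMSO libraries in all 4 lists, against 42.2% over the genome. The region over its starts (chr3:134373316-134375466) had folds of 4.10 and 4.54 in ACSS2i cells and 5.50 and 8.07 in DMSO cells, with pileups of 21 and 38 against 48 and 114. The TEAD motif before the second start lay inside a peak in every library, 301 and 58 bp from a summit in ACSS2i cells and 36 and 19 bp in DMSO cells. An intragenic region 17.2 kb past the first start (chr3:134357682-134358782) had folds of 8.08 and 6.61 in ACSS2i cells and 6.92 and 8.75 in DMSO cells, which overlapped, and percentiles of 98.2 and 96.7 against 89.7 and 92.5. The strongest flank, at 47.9 kb (chr3:134326368-134328638), had folds of 6.26 and 5.54 in ACSS2i cells and 6.10 and 8.02 in DMSO cells. The 2 AMOTL2 regions missing from both ACSS2i lists lay in the downstream flank at 26.7 kb and 38.7 kb, with DMSO folds of 5.02 and 6.75 at the nearer and 3.18 and 2.87 at the farther.

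**Figure D4:**
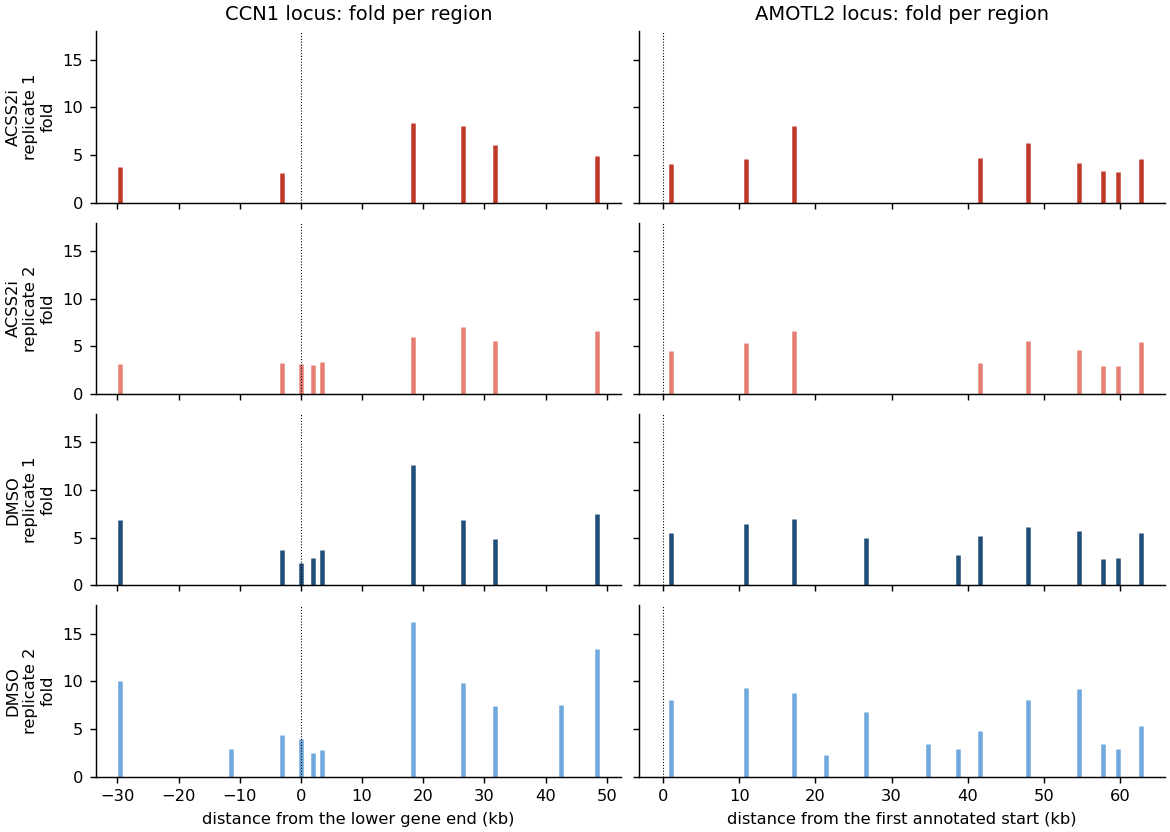
Fold over local background (vertical axis) of each region against its distance in kb from the lower gene end of CCN1 (left) and from the first annotated start of AMOTL2 (right), 1 row per library with ACSS2i above DMSO. The CCN1 region at 18.4 kb has 8.35 and 6.01 in ACSS2i cells and 12.6 and 16.3 in DMSO cells, while the AMOTL2 region at 17.2 kb has 8.08 and 6.61 in ACSS2i cells and 6.92 and 8.75 in DMSO cells.

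ANKRD1 (chr10:90912096-90921087, minus strand) had a start region (chr10:90920985-90921737) with the highest fold among the start regions in ACSS2i replicate 2 and both DMSO libraries. The folds were 5.15 and 8.11 in ACSS2i cells and 9.18 and 15.02 in DMSO cells. The pileups were 21 and 41 fragments in ACSS2i cells and 49 and 112 in DMSO cells, and the percentiles 62.1 and 94.6 against 92.5 and 98.0. The strongest summits lay at -223 and -286 bp from the start in ACSS2i cells and at -255 and -247 bp in DMSO cells. The TEAD motif at -220 was inside the peak in every library, 5 and 68 bp from a summit in ACSS2i cells and 37 and 29 bp in DMSO cells, and the AP-1 motif at -195 was inside it as well. At the far end of ANKRD1 (chr10:90911769-90911950) only DMSO replicate 2 listed a peak, of fold 4.87. The flank of highest rank, at the end of RPP30 (chr10:90871749-90872691), had a fold of 3.5 in ACSS2i replicate 2 and none in replicate 1, against 5.77 and 9.59 in DMSO cells.

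Since percentiles from lists of different length cannot be compared, the 29 regions in all 4 lists were also ranked among the 13306 regions of the series that every list held. Their fold had medians of 4.70 and 5.04 in ACSS2i cells and 6.10 and 8.07 in DMSO cells, and their pileup 21 and 30 against 38 and 94. In shared rank the median shift, ACSS2i minus DMSO, was 4.59 percentile points, with a range of -22.0 to 28.4, against 0.166 for all 13306 regions. The shift was smaller than its SD of 4.89 points over the 4 pairings of an ACSS2i with a DMSO library, and no test was made of it. The pairings share libraries, so this SD describes them and is not an error of the shift. With ranks taken by fold the shift was 13.1 points, but that SD is of ranks by −log10 q. The spread and the all-region shift of ranks by fold were not computed. Without ACSS2i replicate 2 the shift by −log10 q was 0.672. Both ACSS2i ranks lay below both DMSO ranks in 4 of the 29 regions (13.8%), against 16.5% of all such regions, and above them in 8 (27.6%), against 18.1%; the other 17 overlapped.

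The 4 regions of lower shared rank in ACSS2i cells were at CCN1 (18.4 kb and -29.6 kb), WWTR1 (155 kb) and TEAD1 (49.96 kb). The WWTR1 region had the greatest shift of these, with mean ranks of 20.5 in ACSS2i cells and 42.5 in DMSO cells. The 8 of higher rank were 4 regions at AMOTL2 (17.2, 47.9, 57.8 and 59.7 kb), and 1 each at CCN1 (31.8 kb), TEAD1 (136 kb), the TEAD4 gene end and ANKRD1 (-10.1 kb). The CCN1 region at 31.8 kb had mean ranks of 90.0 in ACSS2i cells and 61.6 in DMSO cells. The start regions of CCN2, AMOTL2 and ANKRD1 overlapped between groups in shared rank.

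**Figure D5:**
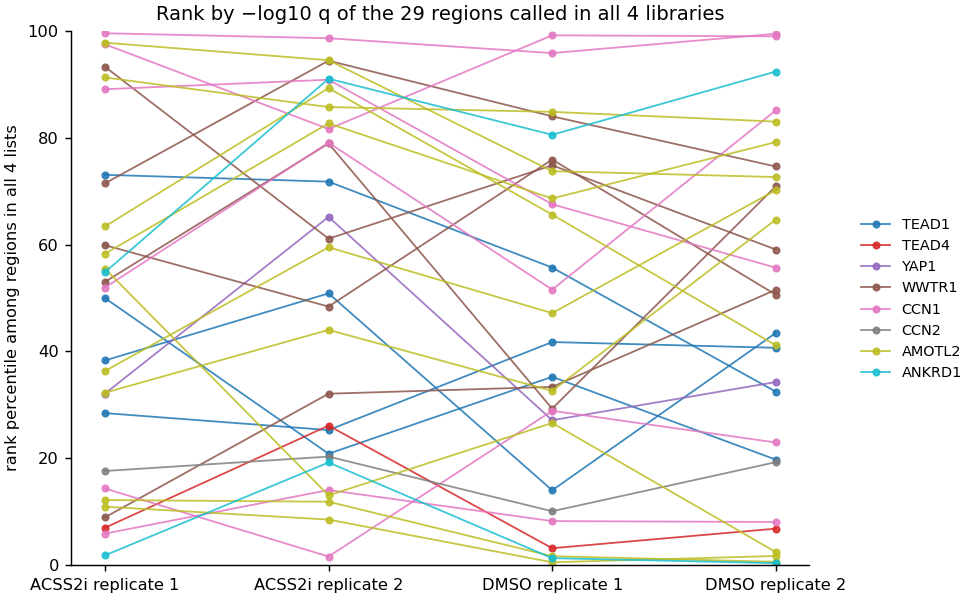
Rank percentile by −log10 q among the 13306 regions present in every list (vertical axis) for the 29 regions at the loci, 1 line per region coloured by gene, across ACSS2i and then DMSO libraries. In 17 regions the ACSS2i and DMSO ranks of the same region overlap, 8 are higher in both ACSS2i libraries and 4 are lower in both.

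For the 29 regions the strongest summit of each library was taken. The range of its position over the 4 libraries had a median of 120 bp, from 10 to 781 bp, and 11 of the 29 were within 100 bp. Where a region holds several summits, a different one can be the strongest in another library. At the CCN1 region at 31.8 kb, with the range of 781 bp, both DMSO libraries listed a summit near each place.

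Other genes of the pathway were counted by their gene-end peaks, beside the 58.0% in all 4 lists and the 18.9% in DMSO lists alone over protein-coding genes. Of 16 Hippo kinases and adaptors, 15 were in both DMSO lists, 11 of these in all 4 lists and 2 in neither ACSS2i list. The 2 were SAV1, the scaffold of the MST kinases, with DMSO folds of 4.58 and 8.0, and the kinase MAP4K4 with 3.33 and 5.55. NF2, the upstream activator of the pathway, had folds of 6.01 and 7.51 in ACSS2i cells and 10.3 and 13.7 in DMSO cells, and the kinase LATS1 had 3.95 and 5.96 against 6.88 and 11.9. Of 16 regulators that bind YAP1 or WWTR1 or act on them, 8 were in both DMSO lists, 4 in all 4 lists and 2, FRMD6 and AJUBA, in neither ACSS2i list.

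Of 18 other YAP1 target genes, 16 were in both DMSO lists, 10 of these in all 4 lists and 3 in neither ACSS2i list. The 3 were CRIM1 with DMSO folds of 5.45 and 6.27, MYOF with 5.36 and 7.21, and IGFBP3, an IGF-binding protein, with 4.27 and 4.90. Of 9 AP-1 genes, 7 were in both DMSO lists and 5 of them (JUN, JUNB, FOS, FOSL1 and FOSL2) were in all 4 lists; the other 2 were each in 1 ACSS2i list. JUN had folds of 5.77 and 7.04 in ACSS2i cells and 5.95 and 6.44 in DMSO cells, which overlapped. LATS2 and PTPN14 each stand in 2 of these lists.

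By percentile across the 4 libraries, the gene-end peak nearest to that of ANKRD1 among 6071 other protein-coding genes was that of MDH1 (Euclidean distance 1.83 percentile points), to that of AMOTL2 COBLL1 (2.05), to that of CCN2 LPAR1 (5.35) and to that of TEAD4 ZWILCH (5.52).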

How the data were processed

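Per the labels, 786-O cells were thawed after freezing, nuclei were exposed to Tn5 and libraries were read in pairs. Per the submitters' processing notes, MACS2 2.1.2 and DiffBind were used with the build hg38, and the tools named beside them are Bowtie2, Trimmomatic 0.38, Picard 2.18.26, SAMtools 1.9, bedtools, deepTools 3.5.0 and bcl2fastq 2.17. Caller options, any Tn5 shift, the handling of duplicates, read totals and the list filter were not stated in the sources used here. Peaks were called per library, as the separate deposited lists show. The authors deposited a score, which was not used, a fold (ratio of summit over local background), −log10 p, −log10 q (p-value and q-value within a library; every q value at least 2 on that scale) and the summit's offset in bp. Fold and q-value are the authors' own per-peak values and here only describe or rank peaks within a list.

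Summits of 1 interval became a single peak with the values of the strongest, and peaks overlapping by 1 bp were merged into regions. Pileup and local background were solved from fold and a Poisson −log10 p, matching within 0.001 for at least 99.9903% of summits per library, and this step was tested on simulated data. Gene spans and starts came from RefSeq tables of GRCh38.p14, the same build. Distances run from the first annotated start, or the lower gene end, to the region's midpoint. Without exons, the planned intronic class became intragenic. Peak numbers were compared by exact permutation; list lengths, thresholds, windows and each replicate left out were varied. All 10 genes were named, with their gene-end regions, the intragenic and the flanking region of highest lower DMSO percentile, regions in both ACSS2i lists alone, and from the 4 context lists (all 90 listed entries, markers included, matched) up to 4 genes missing from both ACSS2i lists. Other regions and genes, among them NF2, LATS1 and JUN, were picked after their values were seen. One listed marker is not reported here. Genes and lists were chosen with earlier results of these data known. Python 3.11.15, pandas 2.3.3, numpy 2.4.6 and scipy 1.17.1 were used.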

Additional observations from a re-analysis of the deposited data

How the results depend on the processing

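Of 74 alternative values, 56 stayed within the limits set for each result, 17 moved and 1 reversed. List length moved the most results: with every list reduced to its 16400 strongest peaks, regions in DMSO lists alone numbered 0 of 23 (a count of 0 allows up to 13%), regions in ACSS2i lists alone 4 (the TEAD4 gene end, and CCN1, ANKRD1 and AMOTL2 flanks; 502 over the genome), genes that lost their gene-end peak 0 of 2 (5.29% over the genome), genes with one in all lists 2 of 2 (79.5%), and the difference in peaks was 8.5, the reversed value. At a −log10 q of at least 5, regions in all lists numbered 19 of 50 (33.6% over the genome) and genes with a gene-end peak in all lists 2 of 7 (AMOTL2 and ANKRD1; 43.5%), while YAP1 and CCN1 were the genes missing from both ACSS2i lists (2 of 7; 29.8%). Flanks of 10 kb gave 18 of 38 regions in all lists (42.2%) and flanks of 100 kb gave 26 of 81 in DMSO lists alone (33.5%). A gene-end window of 2000 bp left TEAD3 as the 1 gene lost, since the ACSS2i replicate 2 peak inside YAP1 then counted. Ranking by fold gave a shift of 13.1. Leaving out the shortest and the longest list was a choice made after seeing the data. It gave 2 of all 69 regions at the loci in ACSS2i lists alone (2157 over the genome) and 44 of 67 in all lists (55.8%). The 2 regions, inside TEAD1 and WWTR1, were also listed in DMSO replicate 2, the longest list, which this choice left out. The 4 regions in ACSS2i lists alone at equal length were of 43 at the loci. In the full lists each of the 4 lay in a region that all 4 libraries listed. They stood in ACSS2i lists alone only after the DMSO lists were cut to 16400 peaks. The genome counts of 502 and 2157 stand without totals, so no share is set beside them.

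Leaving out each replicate in turn gave 17 to 50 regions in DMSO lists alone, 0 to 1 in ACSS2i lists alone and 29 to 44 in all lists. It gave 2 to 4 genes lost, 4 to 6 with a gene-end peak in all lists, differences of -56.5 to -26.5 peaks and shifts of 0.672 to 5.58. The 50, of 97, came without DMSO replicate 1 (genome share 55.9%), against 31 of 61 without ACSS2i replicate 2 (52.2%), and the 44, of 61, came without ACSS2i replicate 1 (61.0%); without ACSS2i replicate 2 the genes lost were TEAD1, TEAD3, YAP1 and CCN1. With the replicate number as a block the difference was -41.5 (exact permutation p = 0.5, the smallest value that 2 pairs allow). Nothing in the labels says that the numbers pair libraries. Read depth is unknown, so absence from a list means only that no peak passed the caller's threshold.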
